A study of Danio rerio with 13 samples.

Results

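The core of the circadian clock was examined in zebrafish liver through 6 genes: the Period genes per1a (ENSDARG00000056885), per1b (ENSDARG00000012499), per2 (ENSDARG00000034503) and per3 (ENSDARG00000010519), the nuclear receptor gene nr1d1 (ENSDARG00000033160) and the activator gene arntl1a (ENSDARG00000006791). They were taken by identifier from the 32105 genes of the count table, with earlier results of these data known. All 6 passed the filter on low counts. The study sequenced liver RNA of 13 male fish of the AB strain, aged 3 months: 5 were wild-type (tert+/+), 5 carried the mutation on 1 copy of tert (tert+/-) and 3 on both (tert-/-). The mutant fish carry the tert hu3430 allele, a nonsense mutation in the gene for the catalytic subunit of telomerase, and each library is 1 liver of 1 fish. The fish were housed under a light and dark cycle, and the labels give neither a batch nor the hour at which a liver was taken.

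In the vertebrate clock, Clock and Bmal proteins, of which arntl1a encodes one, bind together to the promoters of the Period and Cryptochrome genes and switch them on. Period and Cryptochrome proteins then enter the nucleus and repress that activator. nr1d1 (Rev-erb alpha) closes a further loop: its protein is a repressor of Bmal genes. In zebrafish, transcripts of Period genes and of nr1d1 are known for a peak early in the day. Those of Bmal genes are known there for a peak around dusk or in the night. Zebrafish organs, liver included, respond to light directly, with per2 as a light-induced gene. Genes of opposite phase therefore offered a comparison between livers: whether per1a, per1b, per2, per3 and nr1d1 were low where arntl1a was high, and whether the genotype groups differed.

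Library totals ran from 17801374 to 37309651 counts. In 3 libraries (tert+/+ replicate 5, tert+/- replicate 3 and tert-/- replicate 1) 14 identifiers of intestine markers held 2.22% to 3.44% of counts, against 0.00956% to 0.0370% in the other 10, and 12 of the 14 were higher in each of the 3 than in any other. In the same 3 libraries the hepatocyte markers, 18 identifiers of secreted plasma proteins and similar genes, held 1.43% to 2.27%, against 5.57% to 15.96% in the others, where all 18 were detected in every liver. In 2 further libraries, tert+/+ replicate 1 and tert+/- replicate 5, the markers of heart muscle held 0.867% and 0.757%. The 13 mitochondrial genes held 54.7% of counts in tert+/+ replicate 4, 40.3% in tert+/- replicate 3 and 32.8% in tert-/- replicate 2. The 3 libraries are called intestine-marked below, a grouping by marker content that is not one of the study, and results are given with and without them. tert itself stood at 0.484 to 11.4 CPM, and reads of a gene with a nonsense mutation do not check the genotype labels.

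Levels of the 6 genes are given first, as CPM (counts scaled to the library size, corrected by TMM), with the livers of a group in the order of their replicate numbers. Raw counts behind these values ran from 27 to 1999. The panels of levels by liver show them all.

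**Figure D1:**
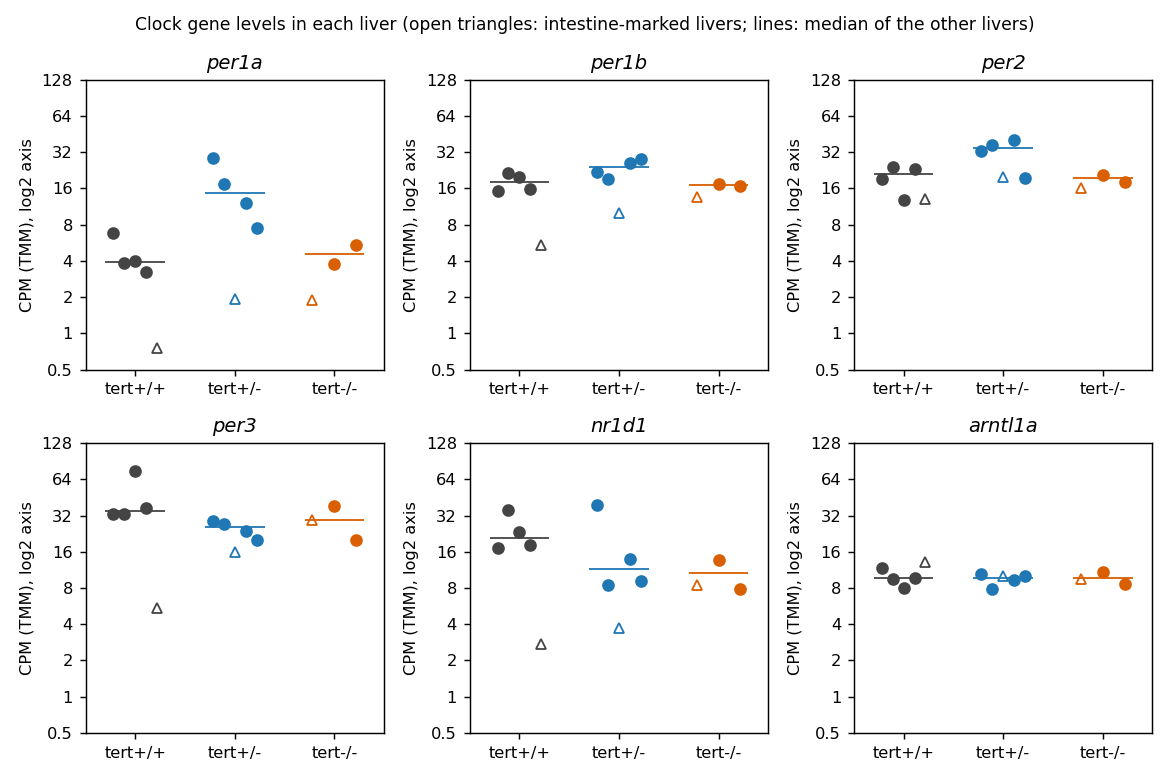
Levels of per1a, per1b, per2, per3, nr1d1 and arntl1a in each of the 13 livers by genotype, in TMM-scaled CPM on a log2 axis; filled circles are the 10 livers with low intestine markers, open triangles the 3 intestine-marked livers, and lines the median of the circles. arntl1a lay between 7.78 and 13.1 CPM in all livers, whereas per1a spread from 0.759 to 28.9 CPM and stood highest in tert+/- livers.

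arntl1a, the night-phase member, stood at 11.7, 9.56, 7.93, 9.69 and 13.1 CPM in the 5 tert+/+ livers. The 5 tert+/- livers held 10.5, 7.78, 10.1, 9.27 and 9.97 CPM of it. For arntl1a, the 3 tert-/- livers gave 9.52, 10.9 and 8.63 CPM. The groups overlapped throughout, and the highest liver exceeded the lowest by 1.68-fold over all 13 and by 1.503-fold over the 10 with low intestine markers. Over those 10 livers its SD was 0.19 on the log2 scale, against a median of 0.56 over all genes, which placed it at the 2.34 percentile of variation.

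per1a, a Period repressor, was the most variable member. Its levels in tert+/+ livers were 6.86, 3.85, 4.002, 3.26 and 0.759 CPM. In tert+/- livers per1a reached 28.9, 17.3, 12.2 and 7.45 CPM, with 1.92 CPM in replicate 3. The tert-/- livers held 1.88, 3.77 and 5.39 CPM of per1a. Its 3 lowest values were those of the 3 intestine-marked livers, and its 4 highest those of the other 4 tert+/- livers. Over the 10 livers with low intestine markers per1a ranged 8.85-fold, with an SD of 1.05 on the log2 scale, at the 85.1 percentile of all genes.

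per1b, a close paralog of per1a, moved far less. It stood at 15.2, 21.3, 20.01, 15.9 and 5.42 CPM in tert+/+ livers. Values of per1b in tert+/- livers were 22.1, 19.2, 9.94, 25.9 and 28.0 CPM. tert-/- livers gave 13.7, 17.5 and 16.9 CPM. Here too the intestine-marked livers were the 3 lowest, and the other 10 differed by no more than 1.84-fold (SD of 0.29 on the log2 scale, 11.7 percentile).

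per2, the light-induced Period gene, had 19.3, 24.3, 12.8, 23.2 and 13.1 CPM in tert+/+ livers. The tert+/- values of per2 were 32.9, 36.8, 19.96, 40.7 and 19.7 CPM. Those of tert-/- were 15.99, 20.7 and 18.0 CPM. Replicates 1, 2 and 4 of tert+/- stood above every other liver, and replicates 3 and 5 lay among the other groups.

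per3, the fourth Period gene, stood at 33.0, 33.0, 74.8, 36.9 and 5.42 CPM in tert+/+ livers. tert+/- livers held 28.7, 27.3, 16.1, 23.8 and 19.9 CPM of per3. The 3 tert-/- livers gave 29.2, 38.4 and 20.2 CPM. tert+/+ livers held both the highest and the lowest value, the lowest being the intestine-marked replicate 5. The range over the 10 livers was 3.76-fold for per3 and 3.19-fold for per2, and their SDs of 0.55 and 0.51 were near the median of all genes.

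nr1d1 was measured at 17.3, 35.6, 23.3, 18.2 and 2.75 CPM in tert+/+ livers. tert+/- livers gave 39.1, 8.44, 3.72, 13.9 and 9.15 CPM of nr1d1. In tert-/- livers it stood at 8.48, 13.6 and 7.88 CPM. A single tert+/- liver, replicate 1, held the highest value of the series while its group otherwise lay below every tert+/+ liver except replicate 5. nr1d1 ranged 4.96-fold over the 10 livers (SD of 0.81 on the log2 scale, 72.9 percentile).

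Compared per gene length, as RPKM recomputed from counts with TMM-scaled totals, the medians over 13 livers fell in the order nr1d1 (4.65), arntl1a (4.01), per2 (3.63), per1b (2.58), per3 (2.47) and per1a (0.649). Neighbours in that order mostly did not differ beyond their spread. nr1d1 exceeded arntl1a in 7 of 13 livers, arntl1a exceeded per2 in 8, and per1b exceeded per3 in 8. Over the 10 livers with low intestine markers these counts were 7, 5 and 6. There the medians of per2 (3.988) and arntl1a (3.987) were almost the same, so no step between these 2 genes was seen. The clearer steps were from per2 to per1b and from per3 to per1a, each in the stated direction in 11 of 13 livers and in 8 of the 10. Each had overlapping ranges.

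No common inverse course of the day-phase genes against arntl1a was detected across the 10 livers with low intestine markers. The liver with the lowest arntl1a level, tert+/- replicate 2 (7.78 CPM), had high per1a and per2 but an nr1d1 level of 8.44 CPM, among the lowest. tert+/+ replicate 3, next lowest in arntl1a (7.93 CPM), had the highest per3 level of all and the lowest per2 level of all. At the other end, tert+/+ replicate 1, with the highest arntl1a level of the 10 (11.7 CPM), held 33.0 CPM of per3 and 17.3 CPM of nr1d1, neither of them at an extreme, but its per1b level of 15.2 CPM was the lowest of the 10. Levels of different day-phase genes thus stood at opposite ends in the livers lowest in arntl1a.

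**Figure D2:**
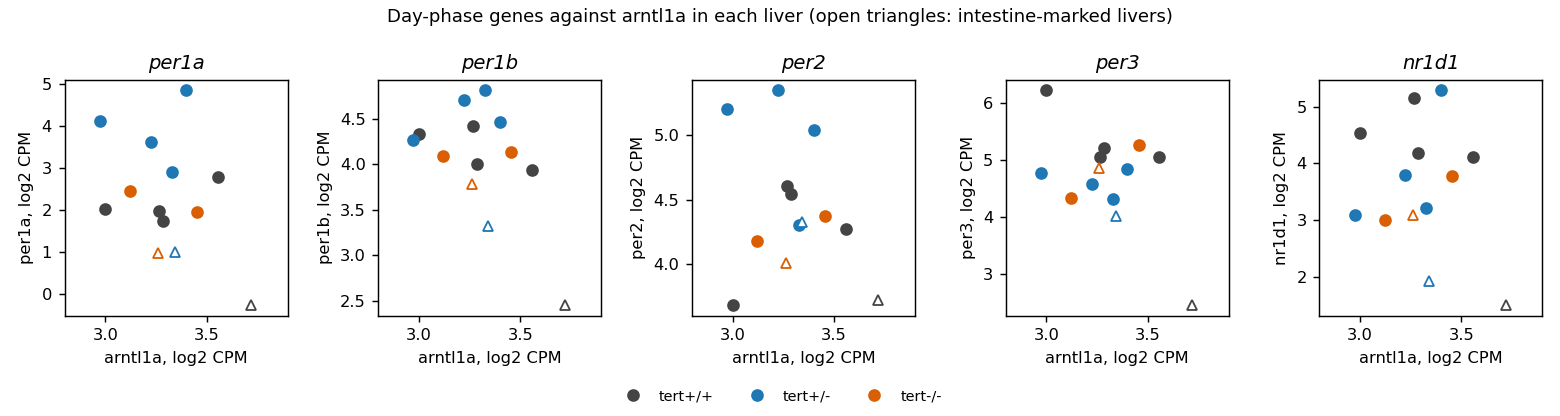
Log2 CPM of each day-phase gene (vertical) against log2 CPM of arntl1a (horizontal) in each liver, coloured by genotype; open triangles are the 3 intestine-marked livers. The filled points show no common slope, with Pearson r between -0.20 and 0.28, and the single triangle at the right of each panel is tert+/+ replicate 5, the highest in arntl1a and the lowest or next to lowest in each day-phase gene.

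In an edgeR quasi-likelihood fit of every gene on the arntl1a level over these 10 livers, none of the 5 day-phase genes was called, and 0% of 16218 genes were (13.4% at an unadjusted p below 0.05). The arntl1a level itself spanned only 2.85 to 3.50 log2 CPM in that fit, with TMM recomputed over the 10 livers, so each slope had a wide error. The slope, in log2 units per log2 unit of arntl1a, was -0.61 for per3 (SE 0.86), -0.36 for per1a (SE 1.69), -0.28 for per2 (SE 0.85) and -0.25 for per1b (SE 0.55). nr1d1 had a slope of 0.97 (SE 1.34), the opposite sign. Adjusted p-values of the 5 from edgeR lay between 0.786 and 0.948. With genotype in the model or without the heart-marked livers the slopes of per1a and per2 turned positive, again uncalled. Without tert+/- replicate 5 the number of called genes over the whole table was 137, and without tert-/- replicate 2 it was 2.

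Pairwise correlations of log2 CPM over the same 10 livers gave the same picture, in 15 pairs tested by permutation. arntl1a had a Pearson r of -0.20 with per1b, -0.09 with per1a, -0.08 with per3, -0.00 with per2 and 0.28 with nr1d1 (permutation p-values of 0.428 to 0.9996, Spearman rho of -0.26 to 0.32). Among the day-phase genes the largest r was that of per1a with per2, at 0.69 (permutation p = 0.0275, adjusted over the 15 pairs 0.413), with a rho of 0.39 (permutation p = 0.26) and an r of 0.54 without the 2 livers farthest from the median of per1a. per3 went with nr1d1 at an r of 0.50 (permutation p = 0.137, rho 0.53, and 0.43 without the 2 farthest livers). It ran against per1a (r = -0.44) and per2 (r = -0.48), and the latter sign turned to 0.17 without the 2 farthest livers. No pair passed after adjustment.

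**Figure D3:**
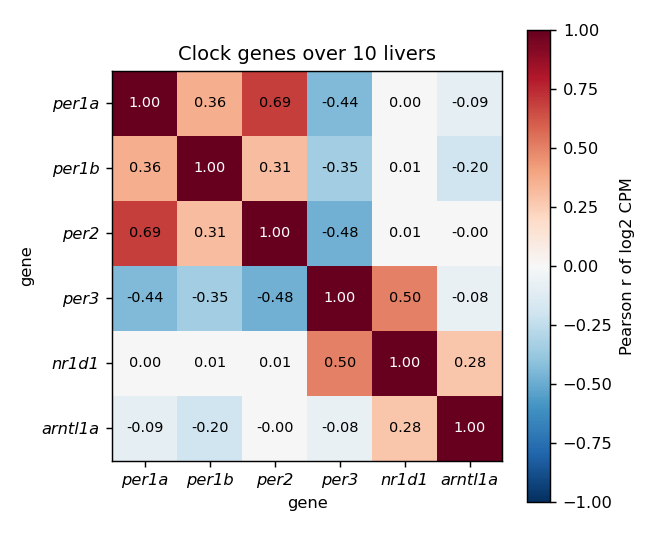
Pearson r of log2 CPM for each pair of the 6 genes over the 10 livers with low intestine markers, on a colour scale from -1 to 1. per1a with per2 (0.69) and per3 with nr1d1 (0.50) are the largest positive values, and the arntl1a row holds values from -0.20 to 0.28.

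With the 3 intestine-marked livers included, 4 of the 15 pairs passed: per1a with per1b (r = 0.77), per1a with per2 (r = 0.77), per3 with nr1d1 (r = 0.76) and per1b with nr1d1 (r = 0.70), with permutation p-values adjusted over the pairs of 0.0109, 0.0109, 0.0109 and 0.0217. By Spearman rho (0.76, 0.56, 0.70 and 0.57) none of these pairs passed, with adjusted permutation p-values of 0.0585, 0.189, 0.0671 and 0.189. The r of arntl1a then lay between -0.25 and -0.57 with the 5 day-phase genes, the sign of opposite phases, and no such pair passed after adjustment (0.0853 to 0.44, by permutation). The rho of the same pairs was nearer to 0, at -0.36 for per1b, -0.31 for per1a, -0.14 for per2, -0.14 for per3 and -0.05 for nr1d1. In tert+/+ replicate 5 the 5 day-phase genes had the lowest or next to lowest level of the 13 livers and arntl1a the highest. That liver is intestine-marked, and no sampling hour is given, so hour of sampling and intestine content cannot be told apart in it. Scaling was changed only over the 10 livers, not over all 13, and there it mattered for the sign of r. With TMM the r of arntl1a with per1b over the 10 livers was -0.20. On RPKM recomputed with each liver's own total count, without TMM, it was 0.78 (permutation p = 0.00978), which did not pass after adjustment. The r of arntl1a with per1a, per2 and per3 was positive too on own totals. Those totals include the mitochondrial counts, 7.93% to 54.7% of counts in the 10 livers, whose part in this sign was not tested. Of the 15 pairs on that scale 1 passed, per1a with per2 (r = 0.85, permutation p = 0.00206).

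The intestine-marked livers were compared with the other 10 in an edgeR fit with genotype as a covariate, a comparison added after the data were seen. per1a, per1b and nr1d1 were lower in them. per1a fell by 2.29 on the log2 scale (SE 0.50, edgeR adjusted p = 0.00314), per1b by 1.11 (SE 0.26, edgeR adjusted p = 0.00584) and nr1d1 by 1.81 (SE 0.64, edgeR adjusted p = 0.0447). Of all genes tested, 15.3% were called lower and 34.5% were called in either direction, so 3 of 6 called lower stands against a high background. per3 (log2 fold change -0.997, SE 0.50), per2 (-0.54, SE 0.26) and arntl1a (0.18, SE 0.19) did not pass, with edgeR adjusted p-values of 0.146, 0.126 and 0.486. The levels of per1a and per1b did not overlap between the marked and the other livers, as for 12.3% of all genes, whereas those of nr1d1 overlapped. Without tert+/- replicate 3, or without tert+/+ replicate 5, per1a alone was called. The call of nr1d1 was also lost without tert+/+ replicate 2, 3 or 4, tert+/- replicate 4 or tert-/- replicate 2 (edgeR adjusted p = 0.0501 to 0.259 over all 7 of these fits). In bulk tissue, fewer cells of a type and less RNA per cell cannot be told apart.

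Genotype was compared in 1 edgeR fit of all 13 livers. None of the 6 genes was called in any of the 3 comparisons, by edgeR or by DESeq2, and the comparisons share their livers in pairs. By edgeR 0% of 16376 genes were called in each comparison, and 1.33% (tert+/- against tert+/+), 1.15% (tert-/- against tert+/+) and 1.12% (tert-/- against tert+/-) had an unadjusted p below 0.05. DESeq2 called 0%, 0.0197% and 0.0131% of 15226 genes.

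**Figure D4:**
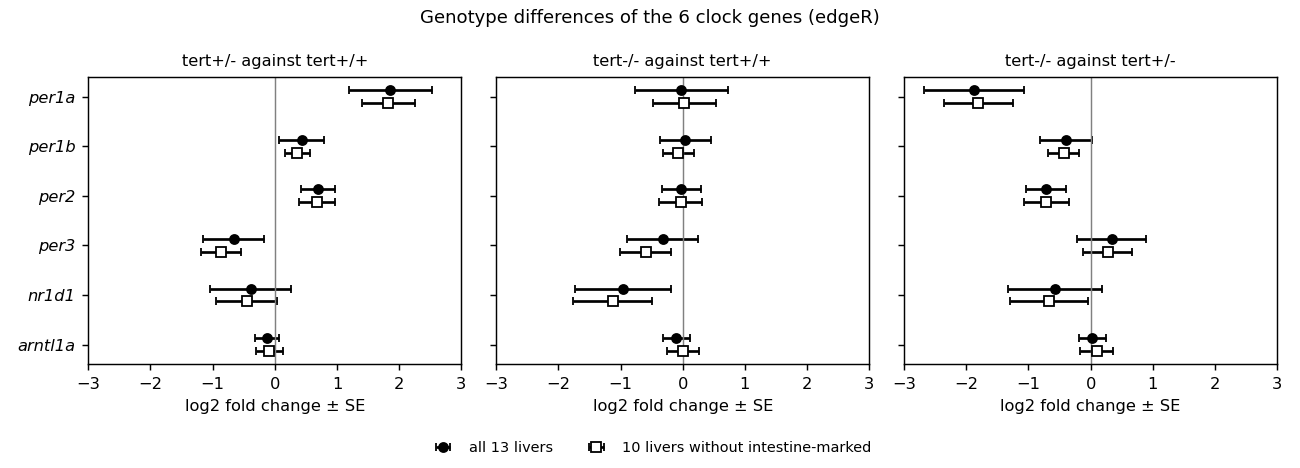
Log2 fold changes (horizontal, with standard errors as bars) of the 6 genes in the 3 genotype comparisons, from edgeR fits of all 13 livers (filled circles) and of the 10 livers without the intestine-marked ones (open squares). per1a stands at 1.85 and 1.83 in tert+/- against tert+/+ and near 0 in tert-/- against tert+/+, and arntl1a lies near 0 in each panel.

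Between tert+/- and tert+/+ livers the values of per1a, per1b and per2 were higher in tert+/- and that of per3 was lower, and none passed after adjustment. per1a averaged 13.6 ± 10.3 CPM (SD, n = 5) in tert+/- and 3.75 ± 2.18 CPM (SD, n = 5) in tert+/+, a log2 fold change of 1.85 (SE 0.67), with an unadjusted p of 0.0163 and an adjusted p of 0.9999 from edgeR. per2 averaged 30.0 ± 9.68 against 18.5 ± 5.44 CPM (SD, n = 5 each), a log2 fold change of 0.70 (SE 0.28, edgeR unadjusted p = 0.0267, adjusted p = 0.9999). per1b had a log2 fold change of 0.43 (SE 0.36), per3 of -0.66 (SE 0.49), nr1d1 of -0.39 (SE 0.65) and arntl1a of -0.13 (SE 0.19), with unadjusted p-values from edgeR of 0.199 to 0.561. Leaving out single livers moved nr1d1 between -1.14 and -0.05 and per3 between -0.94 and -0.23. Thus 2 of 6 genes had an unadjusted p below 0.05 from edgeR, as had 1.33% of all genes. None of the 6 had an adjusted one, as for 0% of all genes.

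Without the intestine-marked livers the same comparison, 4 livers against 4, separated per1a and per3. Every tert+/- liver (7.45 to 28.9 CPM) stood above every tert+/+ liver (3.26 to 6.86 CPM) in per1a, and 0.812% of all genes were separated in that direction. Every tert+/- liver (19.9 to 28.7 CPM) stood below every tert+/+ liver (33.0 to 74.8 CPM) in per3, as for 0.751% of all genes. The log2 fold changes were 1.83 (SE 0.42, edgeR unadjusted p = 0.00153) for per1a, 0.68 (SE 0.29, edgeR unadjusted p = 0.0401) for per2 and -0.86 (SE 0.33, edgeR unadjusted p = 0.0248) for per3, with adjusted p-values of 0.9997. That fit called 0% of 16219 genes. The share of all genes with an unadjusted p below 0.05 in it is not given, so these unadjusted p-values stand without a background. An exact two-sided permutation test of log2 CPM gave p = 0.0286 for per1a and for per3, the smallest p that 4 against 4 allows. These were among 18 such tests without the intestine-marked livers, and another 18 used all livers. With all livers, 5 against 5, the same exact permutation test gave p = 0.0873 for per1a and 0.675 for per3. Over these livers the hepatocyte share was 12.9% to 15.96% in tert+/- and 5.57% to 15.9% in tert+/+, and the mitochondrial share 8.02% to 10.5% and 8.07% to 54.7%. The erythrocyte marker share was 0.0243% to 0.0851% and 0.00845% to 0.0430%, with overlap in each. The part of these shares in the result was not tested.

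In tert-/- livers no Period gene differed from tert+/+ by more than its error, which does not show them to be equal. The log2 fold changes were -0.03 for per1a (SE 0.75), 0.04 for per1b (SE 0.41), -0.02 for per2 (SE 0.32), -0.32 for per3 (SE 0.57) and -0.10 for arntl1a (SE 0.22). nr1d1 had the largest value, -0.96 (SE 0.77, edgeR unadjusted p = 0.238, adjusted p = 0.99998), at 9.99 ± 3.14 CPM (SD, n = 3) against 19.4 ± 11.8 CPM (SD, n = 5). Without intestine-marked livers both tert-/- livers (7.88 and 13.6 CPM) lay below all 4 tert+/+ livers (17.3 to 35.6 CPM) in nr1d1, a separation that 3.46% of all genes showed in that direction. The exact permutation p was 0.133, and 2 livers against 4 cannot give less than 0.0667. In the edgeR fit without intestine-marked livers per3 had a log2 fold change of -0.59 (SE 0.41, edgeR unadjusted p = 0.177). Those of per1a, per1b and per2 were 0.02, -0.07 and -0.04.

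Against tert+/-, the tert-/- livers had lower values of per1a (log2 fold change -1.88, SE 0.81, edgeR unadjusted p = 0.0376) and per2 (-0.72, SE 0.33, edgeR unadjusted p = 0.0473), neither of which passed after adjustment. The tert+/- livers are shared with the comparison above. per1b (-0.39, SE 0.42), nr1d1 (-0.57, SE 0.76), per3 (0.34, SE 0.56) and arntl1a (0.02, SE 0.22) differed by no more than about their errors. Without intestine-marked livers per1a and per1b were lower in both tert-/- livers than in all 4 tert+/- livers, as were 4.58% of all genes. For arntl1a the SE of each of the 3 comparisons was between 0.19 and 0.22 on the log2 scale, the smallest among the 6 genes.

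Beyond these 6 genes, 59 identifiers of other clock components and clock-controlled liver genes were listed. Of these 52 were tested and 0 were called in any genotype comparison, by edgeR or by DESeq2. DESeq2 gave no adjusted p for csnk1e, USP2 and CYP7A1, so it could not call them. In tert+/- against tert+/+, 35 of the 52 had a higher value, with a median log2 fold change of 0.17, against -0.03 over all genes, of which 46.5% were higher. The Clock and Bmal activators, partners and paralogs of arntl1a, had 1 higher of 5 (median -0.12). The cryptochromes had 5 higher of 6 (median 0.38) and the clock-controlled liver genes 12 higher of 13 (median 0.32). Of the photolyase and cry-dash genes 2 of 2 were higher (median 1.14), of the nuclear receptors 4 of 6 (0.16). The PAR bZIP factors had 3 higher of 5 (0.17), the nfil3 repressors 2 of 3 (0.06) and the other repressors 2 of 4 (-0.06). The kinases and ubiquitin ligases had 4 of 8 (0.01). Without the intestine-marked livers the median was 0.16 over all lists, -0.10 for activators, 0.40 for cryptochromes and 0.25 for clock-controlled liver genes. In tert-/- against tert+/+ 24 of 52 were higher, with a median of -0.02, against -0.0056 over all genes. In tert-/- against tert+/-, which uses the same tert+/- livers, 17 of 52 were higher. Their median was -0.20, against 0.0067 over all genes. The share of all genes with a higher value is not given for these comparisons.

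The only listed gene with an unadjusted p below 0.05 in tert+/- against tert+/+ was cry5, a light-induced photolyase gene in zebrafish. It stood at 1.803, 5.56, 0.492, 3.07 and 1.39 CPM in tert+/- livers and at 0.461, 1.43, 1.16, 0.480 and 0.815 CPM in tert+/+ livers. These are low levels, with a mean of 0.23 log2 CPM over all livers, and the raw counts of cry5 are not given. Replicates 1, 2 and 4 of tert+/-, the same livers that were highest in per2, exceeded every tert+/+ liver. The log2 fold change was 1.48 (SE 0.57, edgeR unadjusted p = 0.0224, adjusted p = 0.9999). In tert-/- against tert+/- it was -1.66 (SE 0.69, edgeR unadjusted p = 0.0319, adjusted p = 0.99998). In tert-/- against tert+/+ the only listed gene with an unadjusted p below 0.05 was ALAS1, the first enzyme of haem synthesis. Its log2 fold change was 1.37 (SE 0.61, edgeR unadjusted p = 0.044, adjusted p = 0.99998). Without the intestine-marked livers it was 1.06 (edgeR unadjusted p = 0.177).

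Over the 10 livers, other listed clock genes had an r of either sign with per1a. It ran from -0.05 (cry3a) to 0.77 over the 6 cryptochromes, and was -0.38 for BHLHE40, 0.02 for BHLHE41 and 0.75 for ciarta, which repress the Clock and Bmal pair. These r values are descriptions, with no test, and share the scaling of the libraries. The cryptochrome gene under the symbol CRY1 (ENSDARG00000045768) had an r of 0.75 with per1a, 0.76 with per2, -0.43 with per3 and -0.38 with nr1d1. A second identifier under CRY1 (ENSDARG00000011583) had an r of 0.77 with per1a and 0.34 with per2. NR1D2, which encodes Rev-erb beta, the relative of nr1d1, had an r of 0.64 with per1a and 0.76 with per2 but -0.14 with nr1d1 itself. The listed nr1d2a (ENSDARG00000003820) differed from it, with an r of 0.33 with per1a, -0.14 with per2 and 0.16 with nr1d1. For WEE1, a kinase gene under clock control in mouse liver, r with per1a was 0.67. BMAL1 (ENSDARG00000035732), the paralog of arntl1a, had an r of -0.21 with arntl1a, and bmal2 one of 0.57.

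On the arntl1a level, 0 of 54 listed identifiers were called by edgeR, and 8 had an unadjusted p below 0.05 (14.8%, against 13.4% of all genes), 3 with a positive and 5 with a negative slope. The negative slopes were those of cry5 (-3.65, SE 1.405), cry-dash (-3.23, SE 1.06), cry4 (-2.73, SE 1.01), hlfa (-3.08, SE 0.98), of the PAR bZIP factors under clock control, and nampt2 (-3.18, SE 1.05), for NAD synthesis. Of the 10 livers, tert+/- replicate 2, lowest in arntl1a, was highest in cry5, cry-dash and cry4, at 5.56, 9.65 and 47.7 CPM. The others of the 10 held at most 3.07, 4.25 and 10.5 CPM of these genes. Their slopes without that liver are not given. The other 5 cryptochrome identifiers had slopes from -1.60 (SE 1.58) to 0.32 (SE 0.91), of both signs. The positive slopes were those of RORA (3.77, SE 1.23), which activates Bmal genes, CYP7A1 (8.90, SE 2.53), the rate-limiting enzyme of bile acid synthesis, and CSNK1D (0.92, SE 0.41), a kinase of Period proteins. CYP7A1 was at most 5.74 CPM in these 10 livers. RORA was highest in the heart-marked livers, at 6.72 CPM in tert+/+ replicate 1 and 5.06 CPM in tert+/- replicate 5. In the others of the 10 it was at most 3.08 CPM, and the part of heart muscle content in its slope was not tested. All 8 had edgeR adjusted p-values of 0.286 to 0.372 over all genes.

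In the intestine-marked livers 5 of the 52 listed genes were called higher and 5 lower, with 19.2% and 15.3% of all genes as background. Lower were CRY1 (ENSDARG00000045768, -1.12, SE 0.21), the PAR bZIP factor dbpa (-1.99, SE 0.60) and KLF9 (-3.30, SE 0.85), a zinc finger factor. The kinases and ubiquitin ligases went both ways. Of these, csnk1da (-0.80, SE 0.19) and FBXW11 (-1.65, SE 0.32) were lower, and csnk1e (4.98, SE 0.34) and fbxl3b (0.85, SE 0.24) higher. Also higher were CYP7A1 (8.36, SE 1.64), BHLHE41 (2.39, SE 0.38) and nampt2 (1.41, SE 0.49). The values are log2 fold changes from edgeR, with adjusted p-values from 2.63e-07 to 0.0408. The activators of the clock, arntl1a included, were not among them.

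The genes whose levels were most like each of the 6 over the 10 livers were ranked by Pearson r of log2 CPM among 9723 genes. per1a was most like c3a.2, a complement C3 gene (r = 0.95), and least like ARRB2, a beta-arrestin gene (r = -0.93). per1b went with GNPAT, for plasmalogen synthesis (r = 0.91), and against APC, a regulator of Wnt signalling (r = -0.96). per2 went with ELOVL1, a fatty acid elongase gene (r = 0.86), and against MLYCD, for malonyl-CoA breakdown (r = -0.92). Each of these is an extreme over 9723 genes and only 10 livers and carries no test.

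For per3 the nearest genes were PDIK1L (r = 0.92), a kinase gene, and ATG4C (r = 0.90), an autophagy protease gene. nr1d1 was nearest to IPMK (r = 0.94), an inositol phosphate kinase gene, and opposite to NDUFA9 (r = -0.91), a subunit of respiratory complex I. arntl1a went with the kinase gene MARK3 (r = 0.95) and against GPT (r = -0.93), an alanine aminotransferase gene, and SAT1 (r = -0.93), for polyamine breakdown. No member stood among the 3 nearest of another: per2 ranked at the 99.1 percentile of all genes for per1a, and nr1d1 at the 92.1 percentile for per3.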

How the data were processed

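Liver RNA of 13 fish was measured. The authors deposited a table of raw counts per gene and a table of RPKM. The submitters' processing notes list GRCz10 as build, with featureCounts 1.4.6-p4, STAR 2.4.1d and bcl2fastq 1.8.4, whereas kallisto stands in the methods. For 2866 genes with at least 200 counts in every liver, the gene length implied by the deposited RPKM varied between livers by a median CV of 27.8% with each liver's own total and of 0.00188% with the totals taken in turn down the genes. The deposited RPKM therefore served as an alternative, as log2(RPKM + 1), and to recover lengths, and RPKM was recomputed, also tested as log2(RPKM + 0.1), by limma. On these log scales the change of a weakly expressed gene comes out too small.

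Counts were tested in R 4.3.3 with edgeR 4.0.16 (filterByExpr, 16376 genes, TMM, quasi-likelihood, Benjamini-Hochberg over all genes, threshold 0.05, two-sided), with all 13 livers and 3 genotypes in 1 fit. DESeq2 1.42.0 and limma 3.58.1 were alternatives, with other scalings and filters, 2 groups only, an arntl1a covariate and single livers left out. The slope on arntl1a used the 10 livers with intestine markers under 1% of counts, where 16219 genes were tested for genotype. Correlations used log2 CPM (prior count 2), with 100000 resamples (scipy 1.17.1, pandas 2.3.3, Python 3.11.15). Only the edgeR fits of genotype and of slope were also run on simulated counts. The simulated slope covariate had a wider spread than arntl1a, so that run does not bear on the power of the arntl1a slope.

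Genotypes came from the labels. Each library was taken as a separate fish from its fish number, and p-values measure the spread between these livers. Chi-square tests of counts over 78 pairs of livers gave at least 76.8 per degree of freedom, so none was counted as a copy. Of 32105 identifiers 26269 had a symbol, some of them human, and genes that share a symbol are told apart by identifier. Reads of paralogs such as per1a and per1b may have been divided between the 2 genes, and those of overlapping genes likewise. No coordinates or sequences are given, since no genome of the build was used here.

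The members and lists were chosen with earlier results of these data known. Named genes are the 6 members and tert, called genes of each list or up to 3 with the smallest p, and the 3 most and least correlated genes of each member. Listed genes named for their slope on arntl1a or their r with a member were chosen after their values were seen, and not all genes the rule allows are named. Leaving out intestine-marked and heart-marked livers together, and the comparison of intestine-marked with other livers, were added after the data were seen. Markers of exocrine pancreas held 0.00155% to 0.657% of counts, the highest in tert-/- replicate 1.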

Additional observations from a re-analysis of the deposited data

Results flagged for a closer look

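Of 12 groups of 5 livers checked by Dixon's test (6 genes in tert+/+ and in tert+/-), 2 held a liver far from the others, and chance gives about 1 in 20. tert+/+ replicate 5 was lowest in per1b, with a gap to the next liver of 0.754 of the group's range on the log2 CPM scale. The same liver was lowest in nr1d1, with a gap of 0.716 of the range. It is intestine-marked, with intestine markers at 3.26% of counts.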

How the results depend on the processing

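The counts of 0 called clock genes in each genotype comparison held under DESeq2, other scalings and filters, limma on RPKM, 2 groups only, an arntl1a covariate and leaving out each liver or the marked livers. The sign of values near 0 changed. In tert-/- against tert+/+, per1a turned to log2 fold changes of 0.023 without intestine-marked livers, 0.32 without heart-marked, 0.31 without both, 0.20 on RPKM with own totals, 0.29 on RPKM as deposited and 0.13 as a difference of mean log2 CPM. Likewise per1b turned to -0.072 and -0.14 without intestine-marked and without both kinds of livers, and arntl1a to 0.0076 and 0.12. On RPKM with own totals and as deposited, per2 turned to 0.17 and 0.49, per3 to 0.15 and 0.19 and arntl1a to 0.059 and 0.16, and as differences of mean log2 CPM per2 and per3 gave 0.022 and 0.027. In tert+/- against tert+/+ arntl1a turned to 0.029 without both kinds of livers, and in tert-/- against tert+/- per1b to 0.19 on RPKM as deposited. The cause was not tested.

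The slope of nr1d1 on arntl1a turned to -0.63 over all 13 livers. With genotype added those of per1a and per2 turned to 0.71 and 0.34, and without heart-marked livers those of per1a, per1b and per2 to 0.74, 0.042 and 0.36. The number of pairs that passed, 0 in the 10 livers, was 4 over all 13 livers, where r turned to 0.39 for per1a and per3, 0.66 for per1b and per3, 0.12 for per2 and per3 and -0.25 for nr1d1 and arntl1a. Without the 2 farthest livers it turned to -0.43 for per1a and nr1d1, 0.11 for per1a and arntl1a, 0.15 for per1b and per3, 0.17 for per2 and per3 and 0.62 for per3 and arntl1a. The other r with arntl1a kept their sign, at -0.44 for per2, -0.37 for per1b and 0.29 for nr1d1. On RPKM with own totals 1 pair passed (per1a and per2), and r turned to 0.50 for per1a, 0.78 for per1b, 0.53 for per2 and 0.27 for per3 with arntl1a, and to 0.23 for per1b and per3.

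Leaving out single livers in turn, signs changed within these ranges: in tert-/- against tert+/+ per1a -0.41 to 0.31, per1b -0.17 to 0.18, per2 -0.13 to 0.10 and per3 -0.60 to 0.11; in tert-/- against tert+/- nr1d1 -0.84 to 0.18 and arntl1a -0.061 to 0.10. Slopes on arntl1a ranged from -1.35 to 1.86 for per1a, -0.51 to 0.35 for per1b, -0.99 to 0.74 for per2 and -1.27 to 0.99 for per3. The r with arntl1a ranged from -0.30 to 0.18 for per1a, -0.30 to 0.079 for per1b, -0.40 to 0.31 for per2 and -0.19 to 0.52 for per3, and that with nr1d1 from -0.58 to 0.22 for per1a, -0.14 to 0.30 for per1b and -0.20 to 0.22 for per2. The number of genes called on the arntl1a slope ranged from 0 to 137, and that of clock genes called in intestine-marked livers from 1 to 3. There nr1d1 (edgeR adjusted p = 0.0501 to 0.259 in 7 of the fits) was lost most often. No paired analysis was possible because the labels give no replicate numbers; those used here follow accession order and tie no livers across groups. With 3 tert-/- livers, 2 of them without intestine markers, and arntl1a levels within 1.503-fold, small differences were not detectable.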
